A study of Mus musculus with 11 samples.

Results

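Dendritic cells that have taken up antigen mature: they gain the receptor that leads them to lymph nodes, remodel their cytoskeleton and place on their surface the ligands that T cells read beside peptide and MHC. CD80, CD86 and CD40 promote T cell activation, PD-L1 and PD-L2 restrain it, and the NF-κB subunit RelB is a transcriptional regulator of the mature state. Langerhans cells of the epidermis go through the same change when they leave the skin. The 10 genes described here encode these proteins: Ccr7 and Fscn1 (migration), Relb and Cd83 (maturation), Cd80, Cd86, Cd40 and Icosl (costimulation), and Cd274 and Pdcd1lg2 (PD-L1 and PD-L2). They were chosen by name, and each matched 1 row of the 21860 genes measured. All 10 passed the filter on low values that left 13095 genes for testing.

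The samples were 11 bulk RNA sequencing libraries from CD11b-low EpCAM+ cells sorted from cultures of mouse bone marrow monocytes. All cultures received GM-CSF (20 ng/ml) and were harvested on day 6. One sample had Jag1 and no other addition (Jag1 only, n = 1), and the other 10 samples also received TGFβ (5 ng/ml) and IL-34 (8 µg/ml): alone (TGFβ/IL-34, n = 2), with FICZ (TGFβ/IL-34/FICZ, n = 2), with Jag1 (TGFβ/IL-34/Jag1, n = 3) or with both (TGFβ/IL-34/Jag1/FICZ, n = 3). Jag1 is a Notch ligand, supplied by the OP9 bone marrow stromal line made to express it, and FICZ is a ligand of the aryl hydrocarbon receptor, Ahr, used at a dose that the sources used here do not give. The series text calls FICZ an antagonist of Ahr. The study calls it an agonist and reports activation of the Ahr-responsive gene Cyp1a1 in these cultures. Targets of Ahr were not examined here, so the comparisons are named by the addition of FICZ. The comparisons ask how Jag1 and FICZ, singly and together, change cells given the 2 cytokines. Whether cultures without Jag1 also held OP9 cells is not clear from the labels, so Jag1 and the presence of stroma cannot be told apart. Nothing states that replicates came from separate animals, so the p-values measure the spread between these samples, which may be technical.

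Totals ran from 21.3 to 27.8 M normalized counts per sample, with 13453 to 14498 genes above 0. Epcam, the sorted marker, was at 3952 to 14377 normalized counts in the 10 samples with TGFβ and IL-34 and at 657 in the Jag1 only sample. Itgam, which encodes CD11b, was present in every sample, at 1245 to 19741. B and T cell markers summed to at most 67.0 and 139 normalized counts in any sample. In bulk samples, fewer cells of a type and less RNA per cell cannot be told apart. Scaling all samples to equal totals moved the median log2 difference of all tested genes from -0.02 to -0.20 for FICZ without Jag1, from 0.05 to 0.21 for Jag1 with FICZ and from 0.07 to 0.32 for the interaction of the 2 additions. In the other 3 comparisons it moved that median by less than 0.1.

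Levels differed widely between the 10 genes, with Fscn1 and Ccr7 abundant in every culture. The 10 genes held 0.520% to 1.18% of all normalized counts per sample, the lowest share in TGFβ/IL-34/Jag1 replicate 3 and the highest in TGFβ/IL-34/Jag1/FICZ replicate 2. Fscn1 ranked 8 to 36 among all genes by normalized count and Ccr7 ranked 17 to 85. Per kilobase of the canonical transcript, the median level over the 11 samples was highest for Fscn1 (26218 normalized counts per kb, range 14734 to 42476), followed by Ccr7 (21350), Cd83 (8443), Cd86 (6213), Cd80 (5199), Cd274 (3793), Relb (1918), Pdcd1lg2 (806), Cd40 (394) and Icosl (203). The per-kilobase ranges of neighbours in this order overlapped except at 2 steps. Relb (1234 to 5788 per kb) lay wholly above Pdcd1lg2 (539 to 1030 per kb), and Pdcd1lg2 lay wholly above Cd40 (346 to 499 per kb).

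The spread across the cultures differed between the 10 genes. Across the 11 samples the highest value was 1.44 times the lowest for Cd40, 1.66 times for Cd86 and 1.91 times for Pdcd1lg2, and between 2.64 and 3.07 times for Cd274, Cd83, Fscn1, Cd80 and Ccr7. Relb spanned 4.69-fold and Icosl 5.12-fold, with the Jag1 only sample highest in Relb and lowest in Icosl. On the log2 scale these ranges ran from 0.53 for Cd40 to 2.35 for Icosl, beside a median range of 1.67 over all tested genes and 1.31 over the 4546 tested genes with a mean of at least 1000. Cd86 and Cd40 were also the steadiest between replicates, with pooled within-group SDs of 0.10 and 0.15 on the log2 scale, and Cd80 and Cd83 the least steady, at 0.52 and 0.47. The median SD was 0.35 over all tested genes and 0.26 over the same 4546 genes.

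**Figure D1:**
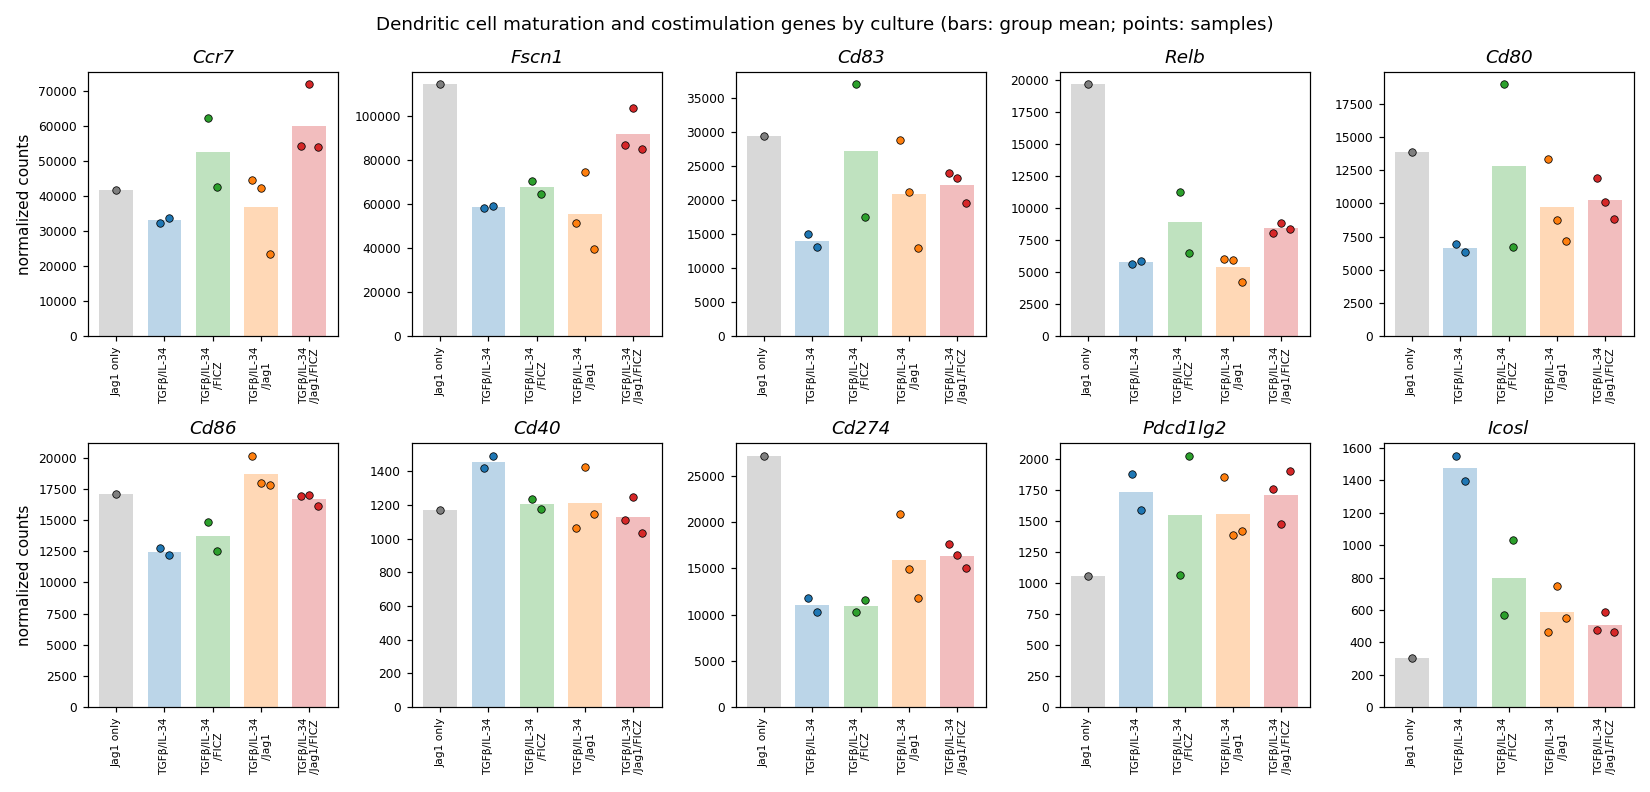
Normalized counts (vertical axes, each starting at 0) of the 10 genes in the 5 culture groups. Points are samples and bars are group means; Icosl is highest in the 2 TGFβ/IL-34 samples (1396 and 1552), and Relb, Fscn1 and Cd274 are highest in the single Jag1 only sample.

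Icosl was the only one of the 10 genes that passed the test in any comparison. ICOS ligand binds ICOS on activated T cells and helps follicular and regulatory T cells. Icosl was at 1552 and 1396 normalized counts in TGFβ/IL-34, at 571 and 1029 in TGFβ/IL-34/FICZ, at 462, 750 and 553 in TGFβ/IL-34/Jag1, at 479, 586 and 463 in TGFβ/IL-34/Jag1/FICZ and at 303 in Jag1 only. Both TGFβ/IL-34 samples lay above every other sample, and the Jag1 only sample lay below every other. With Jag1 added to TGFβ and IL-34, Icosl fell by 1.35 on the log2 scale (SE 0.283, 95% interval -1.98 to -0.72, limma adjusted p = 0.0190), from 1474 ± 110 (SD, n = 2) to 588 ± 147 (SD, n = 3) normalized counts. With Jag1 and FICZ together it fell by 1.54 (SE 0.283, interval -2.17 to -0.91, adjusted p = 0.0166), to 509 ± 66.8 (SD, n = 3). FICZ alone gave -0.94 (interval -1.63 to -0.25, adjusted p = 0.285), and both FICZ samples lay below both TGFβ/IL-34 samples. Adding Jag1 in the presence of FICZ gave -0.60 (interval -1.23 to 0.03, adjusted p = 0.229), with overlapping groups, and the interaction was 0.75 (interval -0.14 to 1.64, adjusted p = 0.315). These last 3 values for Icosl depended on the 2 TGFβ/IL-34/FICZ samples. Leaving out replicate 1 or replicate 2 of that group gave -0.52 or -1.36 for FICZ alone, -1.02 or -0.17 for Jag1 with FICZ, and 0.33 or 1.18 for the interaction. Each of these fits leaves 1 sample in that group, which is then assumed to vary as the other groups do.

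Both Icosl calls rest on few libraries. Replicate 1 of TGFβ/IL-34/Jag1 and of TGFβ/IL-34/Jag1/FICZ carries an opening code in its sample description that no TGFβ/IL-34 sample has. With that code as a term in the fit, the Icosl difference was -1.22 for Jag1 without FICZ (limma adjusted p = 0.0122). It was -1.40 for Jag1 and FICZ together (limma adjusted p = 0.0122). Leaving out 1 library at a time, the adjusted p for Jag1 without FICZ ran from 0.0195 to 0.162 and the log2 difference from -1.54 to -1.19, and the call held without TGFβ/IL-34/Jag1 replicate 2 only. For Jag1 and FICZ together the adjusted p ran from 0.0477 to 0.187 and the difference from -1.64 to -1.46, and the call held without TGFβ/IL-34/Jag1/FICZ replicate 2 only. RNA of stromal cells moved with Jag1: Col1a1 was at 3.84 and 0 normalized counts in TGFβ/IL-34 and at 84.1 to 369 in TGFβ/IL-34/Jag1, and 5 of the 8 stroma markers passed the test upward, with Thy1 passing it downward. The 8 markers summed to 811 and 1192 in TGFβ/IL-34 and to 588 to 1273 in TGFβ/IL-34/Jag1, with Pdgfra at or near 0 in both. Most of the TGFβ/IL-34 sums was Thy1 (790 and 1185), which was at 177 to 284 in TGFβ/IL-34/Jag1. The similar sums therefore hide the rise of the markers that passed upward. Other markers that passed in this comparison were Epcam and Siglech upward and Elane and Cpa3 downward. The part of stromal RNA and of these other markers in the Icosl difference was not tested.

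Read by comparison, 1 of the 10 genes passed for Jag1 without FICZ, where 6.60% of all tested genes passed and 3.96% passed downward. For Jag1 and FICZ together against neither, 1 of 10 passed, against 4.48% of all tested genes and 1.37% downward. None of the 10 passed for FICZ with Jag1, although 17.7% of all tested genes did, 10.9% upward. None passed for FICZ without Jag1 (0.0229% of all tested genes), for Jag1 with FICZ (2.02%) or for the interaction (1.39%). At an unadjusted p under 0.05, limma gave 2, 6, 3, 1, 1 and 0 of the 10 genes in these 6 comparisons in the same order. Of all 13095 tested genes, 2486, 2335, 3959, 2284, 3039 and 2458 were under that level in the same order.

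**Figure D2:**
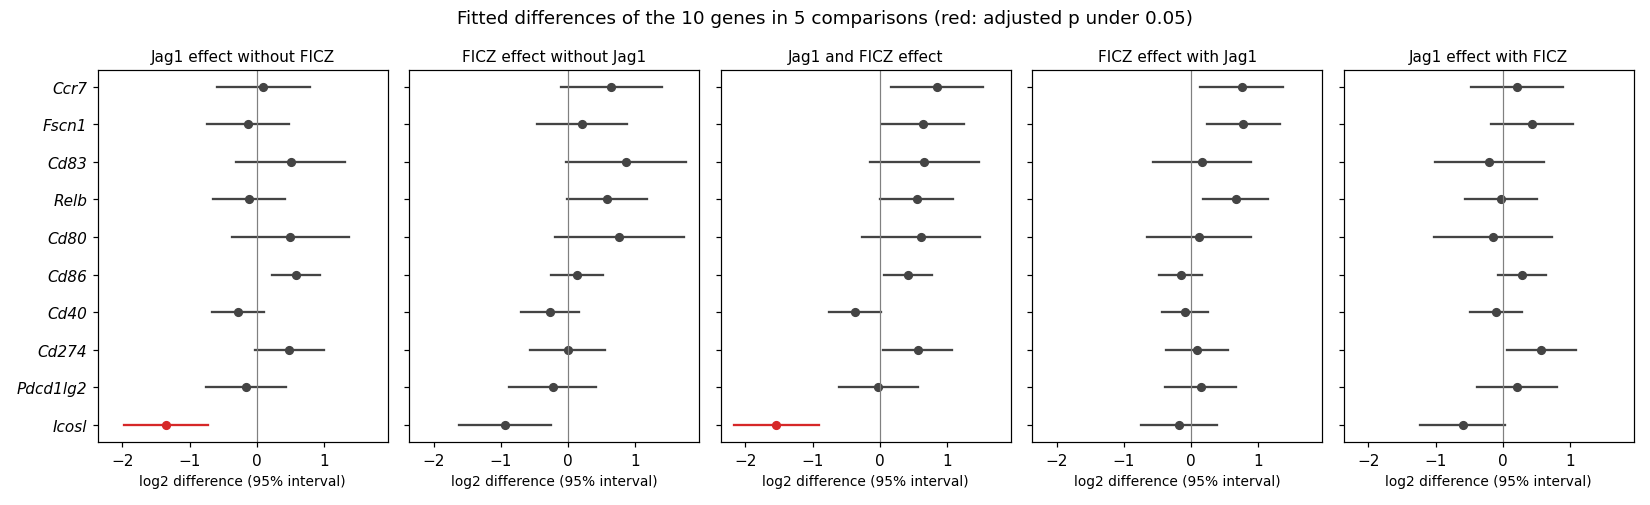
Fitted log2 differences (points) with 95% intervals (lines) of the 10 genes, 1 panel per comparison, with red for an adjusted p under 0.05. Icosl is red in 2 panels, at -1.35 and -1.54; in the Jag1 and FICZ panel 7 of the other genes lie between 0.42 and 0.85.

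Among the 4 groups given TGFβ and IL-34, both migration genes had their highest mean where FICZ and Jag1 were combined. CCR7 is the chemokine receptor that guides mature dendritic cells along CCL19 and CCL21, and fascin, the product of Fscn1, bundles actin in their dendrites. Ccr7 was at 32181 and 33735 normalized counts in TGFβ/IL-34, at 62312 and 42401 in TGFβ/IL-34/FICZ, at 44616, 42248 and 23339 in TGFβ/IL-34/Jag1, at 54189, 71743 and 53985 in TGFβ/IL-34/Jag1/FICZ and at 41719 in Jag1 only. The 3 samples with all additions lay above the 3 without FICZ, and replicate 3 of TGFβ/IL-34/Jag1 was the lowest of all 11. The log2 difference for FICZ with Jag1 was 0.75 (SE 0.277, interval 0.14 to 1.37, adjusted p = 0.0923), and for Jag1 and FICZ together 0.85 (interval 0.16 to 1.54, adjusted p = 0.172). Leaving out 1 library at a time, the Ccr7 difference for FICZ with Jag1 ran from 0.45 to 0.92, the lowest without TGFβ/IL-34/Jag1 replicate 3 and the highest without replicate 1 of that group.

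Fscn1 was at 58223 and 58916 normalized counts in TGFβ/IL-34, at 70475 and 64358 in TGFβ/IL-34/FICZ, at 51325, 74556 and 39606 in TGFβ/IL-34/Jag1, at 86536, 103664 and 84790 in TGFβ/IL-34/Jag1/FICZ and at 114176 in Jag1 only. The 3 samples with all additions again lay above the 3 without FICZ and did not overlap them. The difference for FICZ with Jag1 was 0.78 (SE 0.246, interval 0.23 to 1.32, adjusted p = 0.0545), from 55162 ± 17788 to 91664 ± 10430 (SD, n = 3 each). With the replicate number as a block in the fit over all samples, Fscn1 passed (adjusted p = 0.0422), so that 1 of the 10 genes passed in place of none. The numbers match the code that opens the sample descriptions in these 2 groups but not in TGFβ/IL-34, and with that code as the term in place of the number, 0 of the 10 genes passed. Leaving out 1 library at a time, the Fscn1 difference ran from 0.56 to 1.02, with limma adjusted p from 0.0189 to 0.200. It passed without TGFβ/IL-34/Jag1 replicate 2 only.

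Relb, the non-canonical NF-κB subunit, was likewise higher in the 3 samples with all additions than in the 3 without FICZ. It was at 5635 and 5842 normalized counts in TGFβ/IL-34, at 11263 and 6511 in TGFβ/IL-34/FICZ, at 6033, 5913 and 4188 in TGFβ/IL-34/Jag1, at 8071, 8791 and 8323 in TGFβ/IL-34/Jag1/FICZ and at 19644 in Jag1 only. The difference for FICZ with Jag1 was 0.66 (SE 0.217, interval 0.18 to 1.14, adjusted p = 0.0621), and the groups did not overlap. Leaving out 1 library at a time, this difference ran from 0.49 to 0.75 and never passed (limma adjusted p from 0.0819 to 0.202). Jag1 without FICZ gave -0.11 (interval -0.65 to 0.43, adjusted p = 0.885) with overlapping groups.

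These 3 genes stood near the threshold for FICZ with Jag1, and a minority of the other settings of the fit placed them past it. Of 15 alternatives, Fscn1 passed in 5, Relb in 4 and Ccr7 in 1. Fitting only the samples of the 2 groups called Fscn1 and Relb (adjusted p = 0.0428 and 0.0143), equal totals called the same 2 (0.0380 and 0.0191), quantile normalization called Relb (0.0287) and array weights called Ccr7, Fscn1 and Relb (0.0200, 0.0263 and 0.00285). Between 16.8% and 31.5% of all tested genes passed under these 4 settings. Markers of other cells differed in the same comparison: 5 of 7 tested granulocyte markers of 8 listed passed upward, with sums of 190 to 304 normalized counts without FICZ and 5857 to 8410 with it, and Ly6g at 0 in both groups. Of 5 mast cell markers 2 were tested and Cpa3 passed upward, with sums of 1097 to 2398 and 4096 to 5781, and Fcer1a at 0. Of 7 Langerhans cell markers 3 passed downward (Cd207, Cldn1 and Mfge8), with sums of 316201 to 335451 without FICZ and 66639 to 131605 with it. Of 8 stroma markers, Thy1 and Pdgfrb passed upward, with sums of 588 to 1273 without FICZ and 14668 to 16787 with it, most of it Thy1. Of 5 T cell markers 2 were tested and both, Cd3d and Cd3g, passed upward, with sums of 0 to 3.11 and 25.5 to 109. Of 6 markers of conventional and plasmacytoid dendritic cells 4 were tested, Flt3 passed upward and Siglech downward, with sums of 2203 to 3054 and 4428 to 5802. Neither of 2 tested B cell markers of 5 listed passed. The part of these cells in the differences of Ccr7, Fscn1 and Relb was not tested.

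Cd83, whose product stabilises MHC class II and CD86 at the cell surface, had one of the widest spreads between replicates. It was at 15019 and 13025 normalized counts in TGFβ/IL-34, at 36998 and 17452 in TGFβ/IL-34/FICZ, at 28759, 21132 and 12876 in TGFβ/IL-34/Jag1, at 23940, 23181 and 19554 in TGFβ/IL-34/Jag1/FICZ and at 29430 in Jag1 only. Both FICZ groups lay above TGFβ/IL-34, and TGFβ/IL-34/Jag1 overlapped every group with more than 1 sample. The largest fitted difference was 0.86 for FICZ without Jag1 (interval -0.03 to 1.75, adjusted p = 0.285).

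Cd80 and Cd86 encode the B7 ligands of CD28 and CTLA-4. Cd80 was at 6974 and 6372 normalized counts in TGFβ/IL-34, at 18981 and 6712 in TGFβ/IL-34/FICZ, at 13341, 8769 and 7154 in TGFβ/IL-34/Jag1, at 11900, 10102 and 8844 in TGFβ/IL-34/Jag1/FICZ and at 13907 in Jag1 only. The 2 FICZ replicates differed 2.83-fold and lay at the top and near the bottom of all 11 samples. Cd80 followed Cd83 closely over the 11 samples (Pearson r = 0.958 of log2 values, which share libraries). The fitted Cd80 differences in the 5 pairwise comparisons ran from -0.15 to 0.76, with adjusted p from 0.332 to 0.880.

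Cd86 did not follow Cd80 and showed the smallest spread between replicates. It was at 12733 and 12159 normalized counts in TGFβ/IL-34, at 14848 and 12547 in TGFβ/IL-34/FICZ, at 20153, 17999 and 17799 in TGFβ/IL-34/Jag1, at 16936, 17031 and 16095 in TGFβ/IL-34/Jag1/FICZ and at 17052 in Jag1 only. Every sample with Jag1 lay above every sample without it. The difference for Jag1 without FICZ was 0.58 (SE 0.160, interval 0.23 to 0.94, adjusted p = 0.0597), from 12446 ± 406 (SD, n = 2) to 18650 ± 1305 (SD, n = 3). Cd86 was past the threshold under 2 of 14 alternatives. These were fitting only these 2 groups (limma adjusted p = 0.0370, with 8.34% of all tested genes passing) and array weights (0.00195, with 20.1%). Leaving out 1 library at a time, the difference ran from 0.52 to 0.61. For Jag1 and FICZ together the difference was 0.42 (interval 0.07 to 0.78, adjusted p = 0.190), and for Jag1 with FICZ it was 0.29 (interval -0.07 to 0.64, adjusted p = 0.283).

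Cd40, the receptor through which helper T cells license dendritic cells, was the flattest of the 10 genes and lay near the bottom of the per-kilobase order. It was at 1419 and 1492 normalized counts in TGFβ/IL-34, at 1237 and 1179 in TGFβ/IL-34/FICZ, at 1066, 1424 and 1144 in TGFβ/IL-34/Jag1, at 1109, 1248 and 1033 in TGFβ/IL-34/Jag1/FICZ and at 1170 in Jag1 only. The 2 TGFβ/IL-34 samples were among the 3 highest. The fitted differences in the 5 pairwise comparisons ran from -0.37 to -0.09, none past the threshold, and the lowest bound of their 95% intervals was -0.76.

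The 2 ligands of PD-1 are neighbours on chromosome 19 (GRCm39, Cd274 at chr19:29344529-29365495 and Pdcd1lg2 at chr19:29388319-29448882, both on the plus strand) and differed in level and in pattern. Cd274 was at 11832 and 10298 normalized counts in TGFβ/IL-34, at 10338 and 11616 in TGFβ/IL-34/FICZ, at 20856, 14977 and 11805 in TGFβ/IL-34/Jag1, at 17608, 16471 and 15039 in TGFβ/IL-34/Jag1/FICZ and at 27193 in Jag1 only. The samples without Jag1 all lay at or below 11832, and of those with Jag1 only TGFβ/IL-34/Jag1 replicate 3 lay in that range. The Cd274 differences were 0.48 for Jag1 without FICZ (interval -0.03 to 1.00, adjusted p = 0.300) and 0.58 for Jag1 with FICZ (interval 0.06 to 1.09, adjusted p = 0.184).

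Pdcd1lg2 was at 1882 and 1588 normalized counts in TGFβ/IL-34, at 1067 and 2029 in TGFβ/IL-34/FICZ, at 1861, 1393 and 1420 in TGFβ/IL-34/Jag1, at 1761, 1474 and 1906 in TGFβ/IL-34/Jag1/FICZ and at 1062 in Jag1 only. All groups with more than 1 sample overlapped. Its pairwise differences ran from -0.23 to 0.21, with 95% intervals reaching from -0.88 to 0.80. Over the 11 samples Pdcd1lg2 and Cd274 had a Pearson r of -0.161 of log2 values.

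When Jag1 and FICZ were added together, 7 of the 10 genes had fitted differences between 0.42 and 0.85 on the log2 scale, and the median of the 10 was 0.56 beside 0.01 for all tested genes. None of these 7 (Ccr7, Fscn1, Cd83, Relb, Cd80, Cd86 and Cd274) passed the test with all 11 samples, where the adjusted p ran from 0.172 to 0.498. When only the 5 samples of these 2 groups were fitted, all 7 and Icosl passed (adjusted p from 0.00125 to 0.0190), along with 21.4% of all tested genes, and with array weights Cd40 passed as well, along with 27.2%. Markers of other cells moved in the same comparison. Of 8 stroma markers 7 passed upward (all but Pdgfra), with sums of 811 to 1192 in TGFβ/IL-34 and 14668 to 16787 with both additions, most of it Thy1. Thy1 was also at 12178 and 3578 in TGFβ/IL-34/FICZ, where Col1a1 was at 0 in both samples. Of 7 tested granulocyte markers 3 did (S100a9, Prtn3 and Elane), with sums of 329 to 1378 and 5857 to 8410. Cpa3, Flt3, Cd3g and Cd79b, markers of mast, dendritic, T and B cells, also passed upward. None of the 7 Langerhans cell markers passed (lowest limma adjusted p = 0.0638). Their sums were nevertheless 159192 to 161131 in TGFβ/IL-34 and 66639 to 131605 with both additions, most of it Mfge8. At an unadjusted limma p under 0.05, 4 of these 7 markers differed, and 3 of the 7 had a positive difference. The part of these cells in the differences of Ccr7, Fscn1, Cd83, Relb, Cd80, Cd86 and Cd274 and in the fall of Icosl was not tested. The fit over all samples takes its spread from the other groups too, among them the 2 TGFβ/IL-34/FICZ samples that differed 2.12-fold in Cd83 and 2.83-fold in Cd80. Fscn1, Ccr7 and Cd274 instead varied more within TGFβ/IL-34/Jag1 (1.88-, 1.91- and 1.77-fold) than within TGFβ/IL-34/FICZ (1.10-, 1.47- and 1.12-fold).

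The values for FICZ without Jag1 rest on those 2 TGFβ/IL-34/FICZ samples, which differ in the code that opens their sample descriptions and in the flow cell code. No TGFβ/IL-34 sample shares either code with replicate 1, so for that replicate FICZ and these codes cannot be told apart. With the opening code as a term in the fit, 0 of the 10 genes passed for FICZ without Jag1. Replicate 1 exceeded replicate 2 in Cd80, Cd83, Relb (1.73-fold) and Ccr7 (1.47-fold) and was at 0.526 of it in Pdcd1lg2 and 0.555 in Icosl. Replicate 1 had the largest total of the series, 27.8 M normalized counts, and Itgam was at 1245 in it and 5779 in replicate 2. Without replicate 2, 5 of the 10 genes passed for FICZ without Jag1 (Cd80, Cd83 and Relb upward and Icosl and Pdcd1lg2 downward), along with 5718 of all 13095 tested genes, and without replicate 1 none did. The single remaining sample is then assumed to vary as the other groups do. In the same way TGFβ/IL-34/Jag1 replicate 3 was the lowest of its group in 7 of the 10 genes. Itgam was at 19741 in that replicate, the highest of all samples, and at 4862 and 9886 in replicates 1 and 2. Mitochondrial genes held 0.895% of its normalized counts, against 1.98% and 2.42% in replicates 1 and 2.

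The promoters of 4 of these genes are printed from the GRCm39 assembly with GENCODE vM39 starts, each as the 250 bases before the start of the canonical transcript, 5′ to 3′ on the gene's strand: Icosl, the gene that passed the test, and Ccr7, Fscn1 and Relb, the genes nearest the threshold for FICZ with Jag1. Capitals mark a match to the NF-κB decamer consensus in Icosl and Relb and to the core GCGTG of the element bound by Ahr in Ccr7 and Fscn1, on either strand.
Icosl, chr10:77904886-77905135, plus strand: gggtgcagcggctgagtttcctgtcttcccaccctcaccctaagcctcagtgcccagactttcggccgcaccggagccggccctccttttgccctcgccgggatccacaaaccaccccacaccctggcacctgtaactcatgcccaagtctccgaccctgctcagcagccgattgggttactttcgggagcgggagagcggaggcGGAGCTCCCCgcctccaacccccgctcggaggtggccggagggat
Relb, chr7:19363424-19363673, minus strand: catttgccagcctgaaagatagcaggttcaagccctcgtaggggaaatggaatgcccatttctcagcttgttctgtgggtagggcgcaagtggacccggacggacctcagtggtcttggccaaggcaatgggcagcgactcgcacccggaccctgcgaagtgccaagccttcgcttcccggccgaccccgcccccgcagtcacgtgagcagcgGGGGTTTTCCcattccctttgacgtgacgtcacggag
Ccr7, chr11:99045912-99046161, minus strand: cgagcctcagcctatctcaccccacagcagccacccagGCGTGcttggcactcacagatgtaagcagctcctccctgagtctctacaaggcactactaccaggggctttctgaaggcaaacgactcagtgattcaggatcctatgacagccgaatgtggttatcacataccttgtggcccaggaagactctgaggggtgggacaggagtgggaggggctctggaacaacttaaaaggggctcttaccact
Fscn1, chr5:142945848-142946097, plus strand: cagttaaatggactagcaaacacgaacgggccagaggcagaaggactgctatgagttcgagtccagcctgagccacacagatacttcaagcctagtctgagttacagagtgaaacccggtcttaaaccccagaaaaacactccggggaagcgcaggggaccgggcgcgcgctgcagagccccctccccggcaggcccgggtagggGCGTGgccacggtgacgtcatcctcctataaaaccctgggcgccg

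Over the same 250 bases, the NF-κB decamer was found in 4 of the 10 genes (Relb, Cd40, Pdcd1lg2 and Icosl) and in 7.64% of 21491 protein-coding genes of the table. The core GCGTG was found in 3 of 10 (Ccr7, Fscn1 and Cd274) and in 31.3% of all. The letters TGGGAA, the core bound by RBPJ, the DNA-binding partner of Notch, were found in 4 of 10 (Relb, Cd80, Cd40 and Icosl) and in 22.8% of all. Both strands were searched, and in Relb the decamer (bases 37 to 28 before the start) overlapped the TGGGAA match on the opposite strand (bases 31 to 26). In Icosl the decamer lay at bases 45 to 36 before the start. These are matches of letters and no measure of binding.

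The single Jag1 only sample lay outside the range of the other 10 in 5 of the 10 genes, and with n = 1 it enters no test. It was above all 10 other samples in Relb (19644 normalized counts against at most 11263), Fscn1 (114176 against at most 103664) and Cd274 (27193 against at most 20856), and below all others in Icosl (303 against at least 462) and Pdcd1lg2 (1062 against at least 1067). It lay within their range in Ccr7, Cd83, Cd80, Cd86 and Cd40. Over all tested genes, 20.1% were above and 18.1% below all other samples in it. Relb was 3.65 times the mean of TGFβ/IL-34/Jag1, the group that differs from it by the 2 cytokines. Its low Epcam, Mfge8 (14280 against at least 39376) and Cldn1 (200 against at least 449) lay in the same sample.

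**Figure D3:**
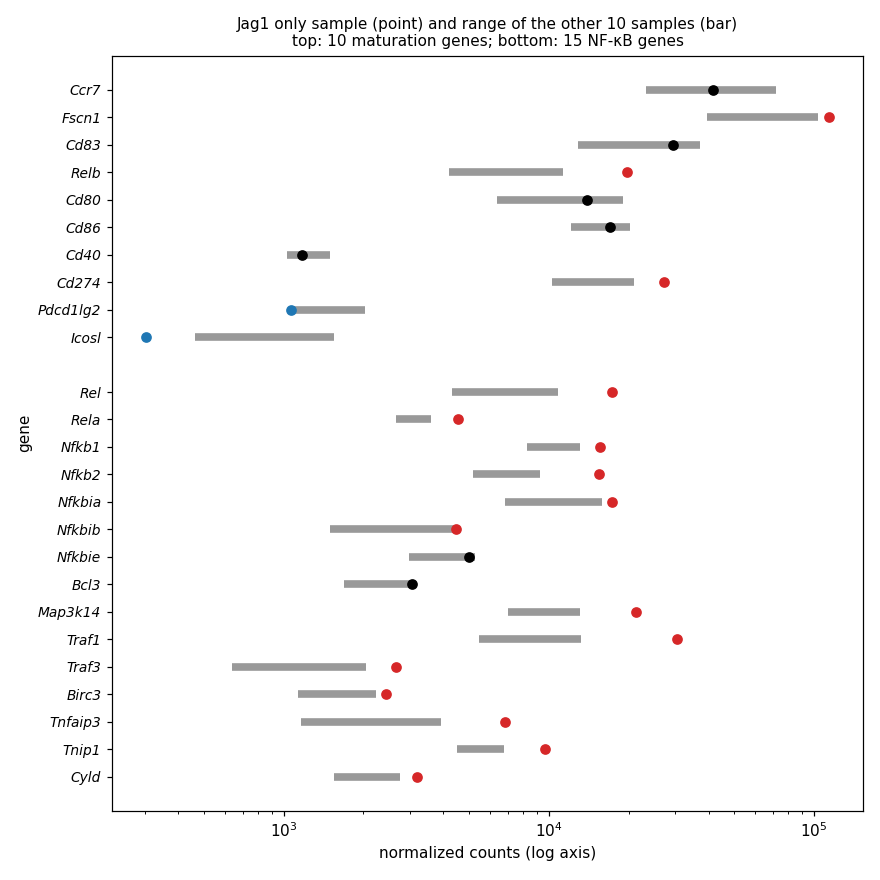
Normalized counts (log axis) of the Jag1 only sample (points) and the range of the other 10 samples (bars) for the 10 genes and 15 NF-κB genes. Red points lie above the range, blue points below and black points within it; 13 of the 15 NF-κB genes and 3 of the 10 genes are above.

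NF-κB genes showed that sample's position most completely. NF-κB dimers are held by IκB proteins and released by kinases that TNF family receptors such as CD40 activate, and Relb pairs with p52, the product of Nfkb2, after the kinase NIK, the product of Map3k14, is stabilised. Of 15 NF-κB subunits, inhibitors and feedback genes, 13 were above all other samples in Jag1 only and 0 below. Among them Traf1 was 2.32 times, Tnfaip3 1.74 times, Nfkb2 1.66 times and Map3k14 1.63 times the highest other sample. The exceptions were Bcl3 and Nfkbie.

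In the tested comparisons the NF-κB genes mostly did not pass. All 15 were tested, and their median log2 difference lay between 0.09 and 0.45 in the 6 comparisons, beside -0.02 to 0.07 for all tested genes. Nfkbia, which encodes the inhibitor IκBα, rose with Jag1 without FICZ by 1.07 (SE 0.244, adjusted p = 0.0281), from 6815 and 7369 normalized counts to 15810, 15453 and 13547. Traf3, whose product marks NIK for degradation, rose with FICZ in the presence of Jag1 by 1.21 (SE 0.292, adjusted p = 0.0164), from 638, 883 and 1094 to 1920, 2047 and 1962. No other gene of the list passed in any of the 6 comparisons.

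With FICZ in the presence of Jag1, 17.7% of all tested genes passed, 10.9% upward. Of 18 other genes of mature or migrating dendritic cells, all tested, 10 rose and 1 fell in that comparison. Their median log2 difference was 0.93 beside -0.01 for all tested genes. The largest were Ccl17, a chemokine for CCR4-bearing T cells (2.19, SE 0.200, adjusted p = 8.41e-05), Slco5a1 (2.15, SE 0.470, adjusted p = 0.0102) and Lad1 (2.03, SE 0.367, adjusted p = 0.00376). Irf4, a transcription factor of migrating dendritic cells, fell by 0.72 (SE 0.179, adjusted p = 0.0198). The markers of other cells given above for Ccr7, Fscn1 and Relb moved in this comparison too, and their part was not tested. With Jag1 without FICZ, where 6.60% of all tested genes passed and 3.96% passed downward, 1 of the 18 rose and 3 fell. Tbc1d4 rose by 1.33 (adjusted p = 0.00594), while Ccl17 fell by 3.79 (SE 0.224, adjusted p = 2.95e-05), Lad1 by 2.30 (adjusted p = 0.00846) and Slco5a1 by 2.17 (adjusted p = 0.0361).

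Ccl17 spanned the widest range of these genes. It was at 28755 and 29265 normalized counts in TGFβ/IL-34, at 53747 and 36193 in TGFβ/IL-34/FICZ, at 1882, 2643 and 1853 in TGFβ/IL-34/Jag1, at 10265, 10248 and 8377 in TGFβ/IL-34/Jag1/FICZ and at 1123 in Jag1 only. The groups did not overlap, in the order FICZ without Jag1, neither, both and Jag1 without FICZ. Its FICZ effect was larger with Jag1 than without by 1.59 on the log2 scale (SE 0.316, adjusted p = 0.0433). Tnfrsf9, which encodes the costimulatory receptor 4-1BB, rose with Jag1 and FICZ together by 2.01 (SE 0.283, adjusted p = 0.00531), from 10457 and 12010 to 49870, 45262 and 40826, and with Tbc1d4 (1.40) and Samsn1 (1.22) it was among 3 genes of the list that rose there, with Ccl17 falling by 1.60. With Jag1 in the presence of FICZ, Tbc1d4 (1.73) and Tnfrsf9 (1.37) rose and Ccl17 fell by 2.20. No gene of the list passed for FICZ without Jag1.

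**Figure D4:**
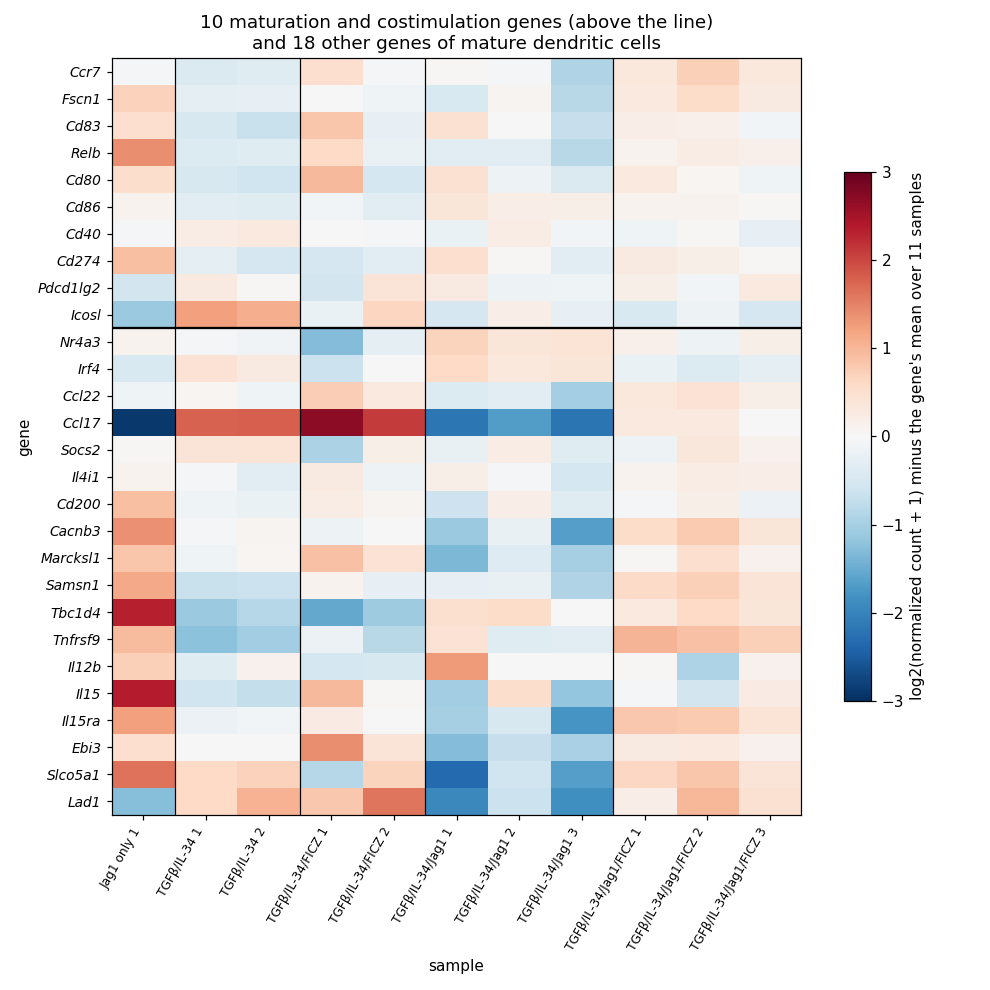
Colour is log2(normalized count + 1) minus the gene's mean over the 11 samples (columns), for the 10 genes (above the line) and 18 other genes of mature dendritic cells (below it). Ccl17, Lad1 and Slco5a1 are low in the 3 TGFβ/IL-34/Jag1 samples.

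Of 16 other costimulatory and inhibitory ligands, 14 were tested; Vtcn1 and Tnfsf18 were at or near 0. With Jag1 without FICZ, Pvr, the ligand of DNAM-1 and TIGIT, rose by 0.97 (SE 0.215, adjusted p = 0.0247) and Cd276, which encodes B7-H3, by 3.45 (SE 0.842, adjusted p = 0.0373), while Lgals9, which encodes galectin-9, fell by 1.08 (SE 0.232, adjusted p = 0.0216). Cd276 was low throughout, at 7.19 and 10.7 normalized counts in TGFβ/IL-34 and 54.4 to 175 in TGFβ/IL-34/Jag1, in the same samples as the stroma markers given above, whose part was not tested. With Jag1 in the presence of FICZ, Pvr rose by 1.59 (adjusted p = 0.00772) and Cd276 by 4.37 (adjusted p = 0.0302). Slamf1, a self-ligand of T cells and dendritic cells, rose by 1.72 with FICZ in the presence of Jag1 (SE 0.155, adjusted p = 8.00e-05), from 892, 1175 and 1017 to 3508, 3442 and 3135. Tnfsf4, which encodes OX40 ligand (1.03, adjusted p = 0.0442), and Lgals9 (0.74, adjusted p = 0.0336) rose in the same comparison, and Slamf1 (1.27, adjusted p = 0.00477) and Pvr (1.03, adjusted p = 0.0258) rose with Jag1 and FICZ together.

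Of 12 genes that carry the signals of CD40 and CCR7, all tested, Rac2 moved most. Rac2 is the blood cell GTPase that drives actin protrusion behind chemokine receptors. It was at 7932 and 6905 normalized counts in TGFβ/IL-34, at 14251 and 10089 in TGFβ/IL-34/FICZ, at 1591, 2054 and 1603 in TGFβ/IL-34/Jag1 and at 8152, 6988 and 7507 in TGFβ/IL-34/Jag1/FICZ. It fell with Jag1 without FICZ by 2.09 (SE 0.196, adjusted p = 0.000285) and rose with FICZ in the presence of Jag1 by 2.12 (SE 0.175, adjusted p = 4.90e-05). Its 2 FICZ effects differed by 1.42 (SE 0.277, adjusted p = 0.0430). Grk6, a kinase that desensitises chemokine receptors, rose with FICZ in the presence of Jag1 by 0.66 (SE 0.186, adjusted p = 0.0338), and none of the 12 passed in the other 3 comparisons.

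Genes whose log2 values ran closest to each of the 10 over the 11 samples were sought among 10904 tested genes with a mean of at least 50. For Ccr7 they were Icam1 (Pearson r = 0.936) and Pcmt1 (0.930), for Fscn1 Slc27a3 (0.962) and Pdcd1 (0.954), for Cd83 Fam177a (0.946) and Sbds (0.936), and for Relb Slc37a2 (0.976) and Ceacam15 (0.976). For Cd80 they were Itm2c (0.955) and Kcmf1 (0.955), for Cd86 Vegfa (0.958) and Osm (0.956), for Cd274 Pde4b (0.958) and Gucd1 (0.956), and for Icosl Tcaf2 (0.976) and Abcd4 (0.974). Cd40 (Setd6, 0.927, and Olfr338, 0.872) and Pdcd1lg2 (Cse1l, 0.924, and Dzip3, 0.909) had the weakest neighbours. The points share libraries, and the Jag1 only sample weighs on all of them.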

How the data were processed

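The authors quantified reads with salmon against the Ensembl GRCm39 transcript model, summed them to genes with tximport and normalized them with DESeq2 (versions not given in the sources used here). The deposited table holds this normalized signal per gene, which a library size factor and a transcript length correction can shift, so no count model was run. Low values of genes with 1 transcript put 1 read at 0.887 to 1.15 normalized counts, or about 20.4 to 24.1 M reads per sample. The 10 genes and all further lists were chosen with earlier results of these data known. Tests used limma 3.58.1 in R 4.3.3 on log2(value + 1): genes were kept that reached 10 normalized counts in 2 or more samples, with 1 mean per group over all 11 samples (6 residual degrees of freedom), eBayes with trend, two-sided, Benjamini-Hochberg over 13095 genes, threshold 0.05. Fold changes on this scale understate changes of low genes. The code was tested on simulated data. A gene of a further list was named if it passed and was among the 3 largest in its direction with a mean of at least 50. Differences of at least 0.5 were carried singly through the alternatives. In the 2 groups of 3 (both with Jag1), same-numbered samples share the code that opens their sample descriptions and their deviations correlated at 0.122 to 0.166, so the replicate block was read for that pair. Same-numbered samples of TGFβ/IL-34/FICZ and TGFβ/IL-34/Jag1/FICZ share it too and correlated at 0.0578 and 0.0591. In the other pairs the numbers do not match the codes, so their correlations do not bear on pairing by code. Coordinates are GENCODE vM39 on GRCm39. The authors' second file, of sample descriptions, was not used. Alternatives were other pseudocounts, filters, scalings, sample sets, array weights, terms for replicate and description code, and leaving out each sample.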

Additional observations from a re-analysis of the deposited data

Results flagged for a closer look

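The FICZ effect on Ccl17 differed between cultures with and without Jag1 by 1.59 on the log2 scale (adjusted p = 0.0433, past the threshold under 8 of 19 alternatives, with adjusted p from 0.00463 to 0.289). The FICZ effect on Rac2 differed by 1.42 (adjusted p = 0.0430, past the threshold under 8 of 19 alternatives, with adjusted p from 0.00305 to 0.279). In the Jag1 only sample, which no comparison used, Fscn1 (114176 normalized counts), Relb (19644) and Cd274 (27193) were above all other samples, and so were 13 of 15 NF-κB genes; with 1 sample these differences were not tested, and the sample was also the lowest of all in Epcam (657).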

How the results depend on the processing

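Of the values recomputed for the 24 member differences of at least 0.5, 315 kept sign and side of the threshold, 30 gained a call, 8 lost one and 1 changed sign. Only 2 of the 24 were called, both of Icosl, so most of the 315 were uncalled values that stayed uncalled. All 8 losses fell on the 2 Icosl calls. Of the 36 smaller differences, 24 changed sign under at least 1 alternative, none while past the threshold. The 39 list gene differences kept their sign throughout, with 441 recomputed values that kept the call and 132 that lost it. For Jag1 without FICZ, 1 of the 10 genes passed, beside 6.60% of all tested genes. Fitting only the groups compared gave 2 (8.34% of all) and array weights 2 (20.1%). Leaving out 1 TGFβ/IL-34/Jag1 sample gave 0 to 1 (4.31% to 5.45%). For Jag1 and FICZ together 1 passed (4.48% of all), 8 with only the groups compared (21.4%) and 9 with array weights (27.2%). Leaving out 1 TGFβ/IL-34/Jag1/FICZ sample gave 0 to 1 (1.39% to 2.35%). For FICZ with Jag1 none passed (17.7% of all). Quantile normalization gave 1 (18.7%), equal totals 2 (16.8%), only the groups compared 2 (27.5%) and array weights 3 (31.5%). The replicate block gave 1 (17.8%) and changed no other count by over 1.5 times. The description code as a term gave none (18.5%), and leaving out 1 sample gave 0 to 1 (10.6% to 13.9%). Leaving out 1 sample gave 0 to 5 for FICZ without Jag1, 0 to 2 for Jag1 with FICZ and 0 to 3 for the interaction, the highest count each time without TGFβ/IL-34/FICZ replicate 2. The Cd80 interaction of -0.64 ran from -1.39 to 0.11 leaving out 1 sample, its sign turning without TGFβ/IL-34/FICZ replicate 1. Causes of these changes were not tested. With 1 to 3 samples a group, small differences were not detectable: the 95% intervals of the uncalled members reached up to 1.75 in the pairwise comparisons.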
